A study of Mus musculus with 12 samples.

Results

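The question addressed here was whether the transcriptional response of podocytes to DZNep differed between cultures with and without high glucose. It was read as the interaction of the 2 treatments, that is, the change caused by DZNep in high glucose (HG+DZNep minus HG) minus the change caused by DZNep without high glucose (DZNep minus control). A positive interaction means that the DZNep effect lay further in the upward direction in high glucose, and a negative one that it lay further in the downward direction. The interaction was computed for 10258 genes, those with a detection p-value under 0.05 on at least 3 of 12 arrays, of 19057 genes with a symbol on the array.

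Cultured mouse podocytes, labelled as a cell line, were kept for 48 h in 4 conditions, with 3 Illumina arrays each. The HG+DZNep group received high glucose and DZNep together for 48 h, the HG group high glucose alone, the DZNep group DZNep alone, and the control group neither agent. The doses of DZNep and glucose, the medium's own glucose level and the name of the line were not given in the sources used here. Nothing in the labels says whether the 3 arrays of a group came from separate cultures, so p-values here reflect the spread among these samples alone, which may be technical, and precision is limited by there being 3 arrays per group.

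Podocytes are specialized epithelial cells of the kidney glomerulus, whose interlocking foot processes cover its capillaries and form the last part of the filtration barrier. DZNep (3-deazaneplanocin A) inhibits S-adenosylhomocysteine hydrolase, the enzyme encoded by Ahcy. The S-adenosylhomocysteine that then accumulates inhibits methyltransferases, among them EZH2, the catalytic subunit of Polycomb repressive complex 2 (PRC2), which places the repressive trimethyl mark on histone H3 lysine 27. High glucose is known to induce Txnip, the gene of thioredoxin-interacting protein, through the glucose-sensing transcription factors MondoA and ChREBP.

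Between 38.4% and 41.3% of the probes were detected on each array, the median raw signal was 133 to 151 intensity units, and the normalized log2 values of any pair of arrays correlated at 0.979 to 0.997 across genes. The 6 arrays with DZNep lay apart from the 6 without it on the first principal component, which held 46.9% of the variance. The second, with 13.5%, set control replicate 3 apart from all others, with a score of -20.52 against -5.58 to 12.17 on the other 11 arrays. That array was the highest control for most of the genes with the largest interactions. The HG arrays scored highest on the second component, at 7.84, 10.43 and 12.17, with 4.18 the highest score elsewhere. On the third, with 7.19% of the variance, the HG+DZNep arrays (-9.14 to -5.53) lay below the DZNep arrays (1.90 to 14.00). Of the 11 podocyte markers, 9 were on the array and 6 were measured, among them Nphs1, Synpo, Podxl and Actn4 on all 12 arrays, while Tcf21 and Ptpro were detected on none. The podocyte list summed to 13.99 to 14.16 in HG+DZNep, 14.05 to 14.09 in HG, 14.08 to 14.18 in DZNep and 13.92 to 14.07 in control (log2). Of 12 mesangial and smooth muscle markers 6 were measured and 4, among them Myh11 and Thy1, were detected on no array. The list's sums were higher, at 15.83 to 15.92, 15.89 to 15.95, 15.83 to 15.91 and 15.97 to 16.02 in the same order. Bright members weighed most in these sums, since the mean log2 level of the 6 was only 7.83 to 8.47 over the 12 arrays. Of 10 parietal markers 9 were measured, with sums of 12.66 to 12.71, 12.61 to 12.79, 12.63 to 12.66 and 12.70 to 12.81. Of 13 endothelial markers 5 were measured and 8, among them Pecam1 and Cdh5, were detected on no array. The summed level of the endothelial list was 9.46 to 9.65 in HG+DZNep, 9.08 to 9.15 in HG, 9.48 to 9.69 in DZNep and 8.94 to 9.22 in control samples (log2), so it moved with DZNep in both arms. Of 13 tubular markers 7 were measured and 6, among them Aqp2 and Umod, were detected on no array. The tubular list summed to 14.24 to 14.34 in HG+DZNep, 14.40 to 14.48 in HG, 13.78 to 14.04 in DZNep and 14.04 to 14.10 in control samples, higher with high glucose in both arms. Of 14 leukocyte markers 6 were measured and 5, among them Ptprc and Lyz2, were detected on no array. The list summed to 11.19 to 11.23 in HG+DZNep, 11.22 to 11.46 in HG, 10.82 to 10.97 in DZNep and 11.01 to 11.04 in control samples. This sum, in which bright members weigh most, was also higher with high glucose in both arms. The median change of the leukocyte members with high glucose was -0.12 under DZNep and 0.07 without it, so the direction under DZNep differed from that of the sum. The part of these markers in the results was not tested. In these bulk samples, a change in the number of cells of a type and a change in RNA per cell cannot be told apart.

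Of 10258 genes, 5 passed an adjusted p under 0.05 for the interaction (0.0487%), in limma's test with Benjamini-Hochberg adjustment over all genes tested. Of these, 3 were higher (0.0292%) and 2 lower (0.0195%). The 3 with a positive interaction were Bod1l, a protector of stalled replication forks in human cells, Akap9, a scaffold that anchors protein kinase A at the centrosome and Golgi, and Ncapg2, a subunit of the chromosome-compacting complex condensin II. In each of them DZNep raised the level in high glucose and lowered it without high glucose. The 2 with a negative interaction were Hba-a1, an alpha-globin chain of haemoglobin, and Matn4, the extracellular matrix adaptor matrilin 4, which DZNep raised in both settings and by less in high glucose. When arrays were centred on their medians instead of quantile normalized, 3 genes passed upward and 0 downward, and the 3 were Bod1l, Ncapg2 and Smc4.

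The promoter windows of the 3 genes with a positive interaction past the threshold are shown. Their common direction follows from that choice. The sequences are RefSeq's, of build GRCm38.p6, each on its gene's strand. A window runs from 250 bases before to 50 after 1 annotated start, which for these 3 genes is not the outer end of the gene span given with its values; the Akap9 window lies wholly within the span. Capitals mark TGACG, the half-site of the cAMP response element, or its reverse complement CGTCA. The Bod1l window is chr5:41844266-41844565 on the minus strand, the Akap9 window chr5:3927936-3928235 on the plus strand and the Ncapg2 window chr12:116405186-116405485 on the plus strand.
Bod1l: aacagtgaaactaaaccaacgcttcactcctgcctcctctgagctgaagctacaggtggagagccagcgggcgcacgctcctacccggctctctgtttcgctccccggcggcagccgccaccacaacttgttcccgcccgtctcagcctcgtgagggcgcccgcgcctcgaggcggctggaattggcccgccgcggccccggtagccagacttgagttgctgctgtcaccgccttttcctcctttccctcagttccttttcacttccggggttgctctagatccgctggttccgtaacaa
Akap9: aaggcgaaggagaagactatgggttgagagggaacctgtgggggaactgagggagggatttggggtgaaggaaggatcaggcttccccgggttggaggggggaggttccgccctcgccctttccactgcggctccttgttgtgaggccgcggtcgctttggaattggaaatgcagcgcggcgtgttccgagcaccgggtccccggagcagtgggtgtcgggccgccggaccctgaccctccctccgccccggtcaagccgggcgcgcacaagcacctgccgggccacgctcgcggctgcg
Ncapg2: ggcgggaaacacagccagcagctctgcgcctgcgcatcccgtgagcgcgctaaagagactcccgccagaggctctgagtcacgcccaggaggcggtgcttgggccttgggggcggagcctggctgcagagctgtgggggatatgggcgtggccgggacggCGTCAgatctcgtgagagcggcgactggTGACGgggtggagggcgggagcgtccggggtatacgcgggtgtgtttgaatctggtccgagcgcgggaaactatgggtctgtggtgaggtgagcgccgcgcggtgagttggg

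Each window was searched on both strands for CACGTG (the E-box core), ACGTG (the core of the hypoxia response element, which lies within CACGTG) and TGACG. Of 8338 tested genes with a window in the table, 10.2% held CACGTG, 25.7% held ACGTG and 31.9% held TGACG. Among the 5 genes past the interaction threshold, only Ncapg2 held TGACG, with 2 matches, and none held CACGTG or ACGTG. These counts describe letters in a window and say nothing of binding. The array files name no build, so the coordinates are those of the RefSeq table alone.

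Bod1l spans chr5:41787538-41844355 and had the largest interaction of the 5. Its normalized log2 intensity was 7.67, 7.57 and 7.79 on HG+DZNep arrays, against 7.25, 6.81 and 6.84 on HG arrays, so that the groups did not overlap. It was 6.86, 6.87 and 7.03 on DZNep arrays, against 7.68, 7.62 and 8.16 on control arrays, again without overlap. DZNep thus changed Bod1l by 0.71 in high glucose (adjusted p = 0.00569, limma) and by -0.90 without high glucose (adjusted p = 0.00116, limma). The interaction was 1.61 (SE 0.212, 95% confidence interval 1.15 to 2.08, adjusted p = 0.0383, limma). HG+DZNep and control arrays stood at like levels, while either agent alone was associated with a lower one, by -0.86 for HG minus control (adjusted p = 0.0464, limma). Without control replicate 3, the highest of the controls, the interaction was 1.44.

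Akap9 spans chr5:3927736-4080204 and was measured by 3 probes. Its log2 intensity was 11.08, 11.12 and 11.09 on HG+DZNep arrays, against 10.39, 10.36 and 10.50 on HG arrays. It was 10.52, 10.85 and 10.79 on DZNep arrays, against 10.97, 10.93 and 11.18 on control arrays. Both pairs of groups were fully separated, and in opposite directions. The DZNep effect was 0.68 in high glucose (adjusted p = 0.000556, limma) and -0.31 without high glucose (adjusted p = 0.0282, limma), and the interaction was 0.99 (SE 0.135, 95% confidence interval 0.70 to 1.29, adjusted p = 0.0383, limma). The other 2 probes gave interactions of 1.08 and 1.09, the same direction and size, without passing on their own over all probes (adjusted p = 0.0699 and 0.144, limma).

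Ncapg2 spans chr12:116405351-116463532. It had log2 intensities of 7.10, 6.96 and 7.07 on HG+DZNep arrays, against 6.59, 6.63 and 6.54 on HG arrays. The DZNep arrays stood at 7.08, 6.88 and 7.01, against 7.26, 7.30 and 7.50 on control arrays. The HG group was the lowest and the control group the highest, and the 2 groups with DZNep overlapped between them. The DZNep effect was 0.46 in high glucose (adjusted p = 0.00258, limma) and -0.37 without high glucose (adjusted p = 0.00617, limma), and the interaction was 0.82 (SE 0.117, 95% confidence interval 0.57 to 1.08, adjusted p = 0.0383, limma). A second, dimmer probe of Ncapg2 gave 0.22 (adjusted p = 0.639, limma) and did not show the effect at that size.

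Hba-a1 spans chr11:32283672-32284486 and showed the largest DZNep effect of the 5 in both settings. Its log2 intensity was 8.20, 8.46 and 8.46 on HG+DZNep arrays, against 6.80, 6.91 and 6.77 on HG arrays. It was 9.31, 9.03 and 9.05 on DZNep arrays, against 6.47, 6.6 and 6.54 on control arrays. All 6 arrays with DZNep lay above all 6 without it, and every DZNep array lay above every HG+DZNep array. The DZNep effect was 1.55 in high glucose (adjusted p = 2.72e-06, limma) and 2.59 without it (adjusted p = 1.45e-07, limma), and the interaction was -1.05 (SE 0.137, 95% confidence interval -1.35 to -0.75, adjusted p = 0.0383, limma). Under DZNep, high glucose changed Hba-a1 by -0.76 (adjusted p = 0.0183, limma). The mouse genome has a near-identical alpha-globin copy, Hba-a2, and the signal may be shared between the copies.

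Matn4 spans chr2:164389393-164405160. Its log2 intensity was 6.98, 6.88 and 7.0 on HG+DZNep arrays, against 6.73, 6.76 and 6.63 on HG arrays. It was 7.50, 7.48 and 7.31 on DZNep arrays, against 6.40, 6.50 and 6.38 on control arrays. No array of one group lay within the range of another. The DZNep effect was 0.25 in high glucose (adjusted p = 0.0314, limma) and 1.00 without it (adjusted p = 8.16e-06, limma), and the interaction was -0.75 (SE 0.105, 95% confidence interval -0.98 to -0.52, adjusted p = 0.0383, limma).

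**Figure D1:**
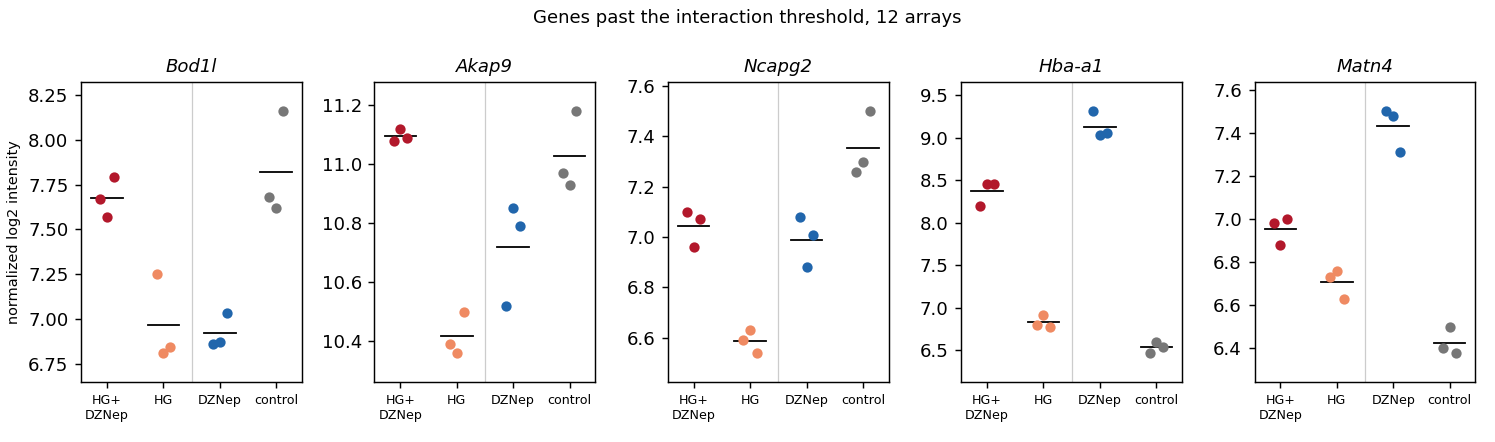
Normalized log2 intensity (vertical axis, a separate range for each gene, not starting at 0) of the 5 genes past the interaction threshold on each of the 12 arrays, with HG+DZNep, HG, DZNep and control from left to right. Points are arrays and bars are group means; Bod1l, Akap9 and Ncapg2 are higher in HG+DZNep than in HG and lower in DZNep than in control, whereas Hba-a1 and Matn4 are higher with DZNep in both settings.

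The calls were few and close to the threshold. Each of the 5 had the same adjusted p of 0.0383, and leaving out any of 9 of the 12 arrays left 0 genes past it in limma's test, with 1248 to 1615 at an unadjusted p under 0.05. Leaving out control replicate 1 left 13 genes, control replicate 2 left 12, both with the 5 among them, and HG replicate 1 left 1, Bod1l. Without control replicate 3 the 5 interactions were 1.44, 0.92, 0.75, -1.05 and -0.73 for Bod1l, Akap9, Ncapg2, Hba-a1 and Matn4, in the same directions, with 0 genes called. At an unadjusted p under 0.05, 1618 genes (15.8%) had an interaction, 669 of them positive (6.52%) and 949 negative (9.25%). The median interaction over all genes was -0.06 and the median SE 0.143. With arrays centred on their medians, the median interaction was 0.0067 and 1073 genes had an unadjusted p under 0.05 in limma's test.

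The data bound the interaction of most genes. The 95% confidence interval had a median half-width of 0.313 and lay wholly within -1 and 1 for 9447 genes (92.1%), and within -0.5 and 0.5 for 5188 (50.6%). A DZNep effect that differed between settings by 2-fold or more was thus outside the interval for most genes. In simulated data on the same 10258 genes, with 200 of them given an interaction, 90% of interactions of 1 and 23% of interactions of 0.5 (log2) were recovered. That run called 118 genes, so its Benjamini-Hochberg cut-off on the unadjusted p was looser than here, where 5 passed. Its recovery shares therefore do not carry over to the present test. Here 2 of 49 genes with an absolute interaction of 1 or more passed.

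DZNep itself changed many genes in both settings. In high glucose, HG+DZNep against HG, 2487 genes passed (24.2%), with 1268 higher (12.4%) and 1219 lower (11.9%). Without high glucose, DZNep against control, 3473 passed (33.9%), with 2082 higher (20.3%) and 1391 lower (13.6%). The difference between these counts was not itself tested, and its direction depended on the settings and arrays used. With array weights more genes passed in high glucose, 1937 higher and 1822 lower, against 1796 and 1257 without it. Without control replicate 3 more also passed there, 1392 higher and 1354 lower, against 1556 and 1087. With arrays centred on their medians, DZNep against control gave 969 higher and 1272 lower, so lower genes outnumbered higher ones. The 2 effects share no array, and across all genes they correlated at r = 0.663 (Spearman's rho 0.601), with the same sign for 71.8% of genes; genes are not independent replicates, so no p is given.

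Genes called in both settings in the same direction numbered 1617 (15.8% of those tested), which is 65% of the genes called in high glucose and 46.6% of those called without it. Only 2 of them, Hba-a1 and Matn4, passed for the interaction. A further 1835 genes were called without high glucose only and 849 in high glucose only, and none of these passed for the interaction, so a DZNep effect called in 1 setting alone was not shown to differ between settings for any gene. Of the 849, 79.7% had the same sign in the other setting, and of the 1835, 82.1%. The other setting's effect was smaller, with a median absolute change of 0.15 in high glucose against 0.39 without it for the 1835, and 0.38 against 0.14 for the 849. A choice of genes by their effect in 1 setting lowers the value in the other by construction, in both directions. Finally, 21 genes were called in both settings with opposite signs (0.205%), among them Bod1l, Akap9 and Ncapg2.

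**Figure D2:**
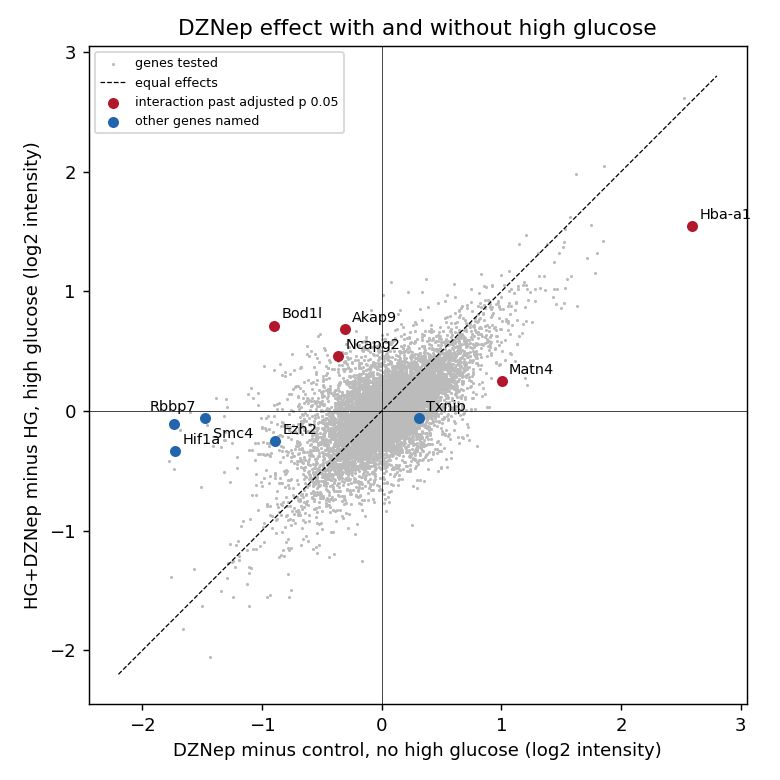
DZNep effect in high glucose (HG+DZNep minus HG, vertical axis) against the DZNep effect without high glucose (DZNep minus control, horizontal axis), both as log2 differences, for 10258 genes. The dashed line marks equal effects; most genes follow it, Bod1l, Akap9 and Ncapg2 lie at the upper left, Hba-a1 and Matn4 lie below the line, and Ezh2, Smc4, Rbbp7, Hif1a and Txnip (blue) did not pass the interaction threshold.

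The enzyme that DZNep inhibits and the PRC2 subunits were examined next. Ezh2 had log2 intensities of 10.55, 10.51 and 10.42 on HG+DZNep arrays, against 10.79, 10.66 and 10.78 on HG arrays, and 10.32, 10.32 and 10.41 on DZNep arrays, against 11.34, 11.00 and 11.37 on control arrays. The controls were the highest group and the HG arrays the next. DZNep lowered Ezh2 by -0.89 without high glucose (adjusted p = 7.28e-05, limma), while the change in high glucose was -0.25 and did not pass (adjusted p = 0.0721, limma). The interaction of 0.64 (SE 0.133, 95% confidence interval 0.34 to 0.93) did not pass either (adjusted p = 0.0970, limma), and the second, dimmer probe of Ezh2 gave 0.10.

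Suz12, which stabilizes the complex, had an interaction of 0.19 (95% confidence interval -0.07 to 0.45), and Eed, which reads the mark, one of -0.05 (-0.67 to 0.58). Ezh1, the alternative catalytic subunit, had 0.23 (-0.30 to 0.76). Phf19, a Polycomb-like accessory subunit, had the next smallest p of the list. Its log2 intensity was 5.88, 6.23 and 6.06 on HG+DZNep arrays, against 6.41, 6.43 and 6.51 on HG arrays, and 6.38, 6.18 and 6.28 on DZNep arrays, against 6.2, 5.81 and 6.03 on control arrays. DZNep lowered Phf19 in high glucose by -0.39 (adjusted p = 0.0241, limma), and its interaction of -0.66 did not pass (adjusted p = 0.113, limma). Of the 10 PRC2 genes measured, none passed for the interaction, and the list's median was 0.11, beside -0.06 over all genes. At an unadjusted p under 0.05, 2 (Ezh2 and Rbbp7) had a positive and 1 (Phf19) a negative interaction, beside 6.52% and 9.25% of all genes.

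Ahcy, the direct target of DZNep, had log2 intensities of 9.51, 9.56 and 9.37 on HG+DZNep arrays, against 9.44, 9.34 and 9.23 on HG arrays, and 9.61, 9.58 and 9.61 on DZNep arrays, against 9.49, 9.27 and 8.98 on control arrays. The DZNep arrays were tight, while the control arrays spread and 1 of them overlapped HG+DZNep. Ahcy rose by 0.35 without high glucose (adjusted p = 0.0314, limma), its change in high glucose was 0.14 (adjusted p = 0.397, limma), and its interaction was -0.21 (95% confidence interval -0.56 to 0.14). Its other, dimmer probe gave an interaction of -0.07, with DZNep effects of 0.43 in high glucose (adjusted p = 0.0782, limma) and 0.49 without it (adjusted p = 0.033, limma). Of 11 genes of the methionine cycle and polyamine list, none passed for the interaction, with a list median of 0.04.

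Txnip, the glucose-responsive gene, stood at like levels in all 3 treated groups. Its log2 intensity was 12.83, 12.87 and 12.88 on HG+DZNep arrays, 12.87, 12.91 and 12.97 on HG arrays and 12.86, 12.89 and 12.80 on DZNep arrays, against 12.49, 12.61 and 12.51 on control arrays. All 9 treated arrays lay above the 3 controls. High glucose alone raised Txnip by 0.38 (adjusted p = 0.0387, limma) and DZNep alone by 0.31 (adjusted p = 0.00285, limma), whereas DZNep in high glucose gave -0.06 (adjusted p = 0.530, limma) and high glucose under DZNep 0.01. The interaction of -0.37 (SE 0.0865, 95% confidence interval -0.56 to -0.18) did not pass over all genes (adjusted p = 0.109, limma), and the second probe gave -0.20.

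Of 15 MondoA and ChREBP target genes measured, Txnip included, none passed for the interaction, and the median was -0.18. At an unadjusted p under 0.05, 1 had a positive and 4 a negative interaction, beside 6.52% and 9.25% of all genes. Me1, which encodes malic enzyme, stood at 7.05, 7.19 and 6.74 on HG+DZNep arrays, against 7.44 on each HG array, and at 6.89, 6.88 and 7.04 on DZNep arrays, against 7.02, 6.94 and 6.86 on control arrays. DZNep lowered Me1 in high glucose by -0.45 (adjusted p = 0.00859, limma) and its change without high glucose was -0.0012 (adjusted p = 0.995, limma), with an interaction of -0.45 that did not pass (adjusted p = 0.181, limma). In the hexosamine, polyol and pentose phosphate list, Uap1, which makes UDP-N-acetylglucosamine, had an interaction of -0.74 (adjusted p = 0.138, limma), with a DZNep effect of -0.56 in high glucose (adjusted p = 0.0146, limma) and 0.17 without it (adjusted p = 0.381, limma). Hk1, hexokinase 1, had -0.55 (adjusted p = 0.113, limma), but its other probe gave 0.98, the opposite sign.

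**Figure D3:**
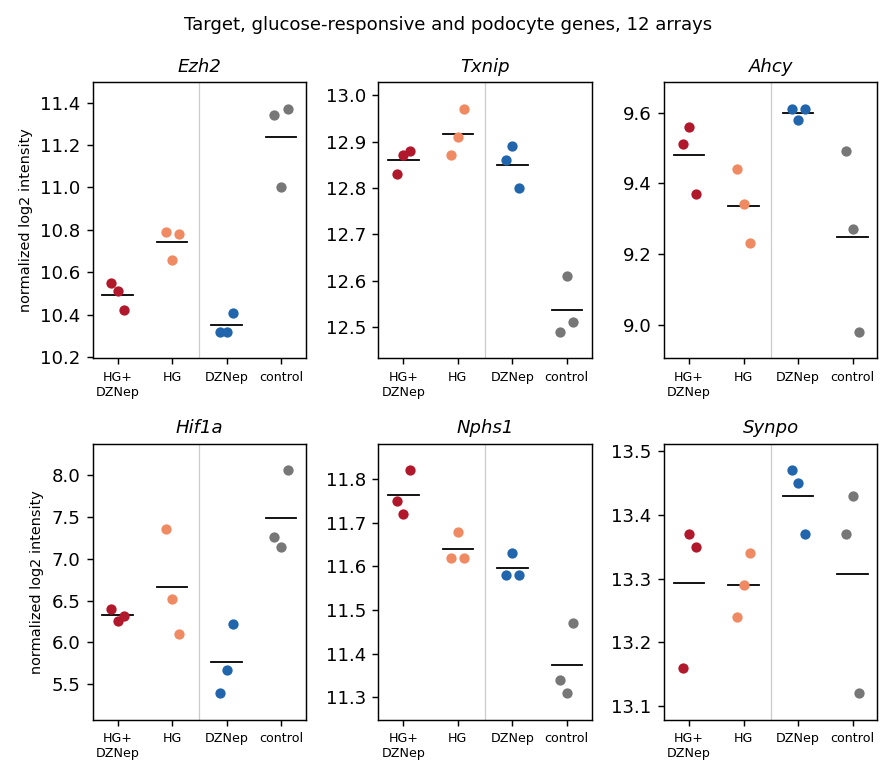
Normalized log2 intensity (vertical axis, a separate range for each gene, not starting at 0) of Ezh2, Txnip, Ahcy, Hif1a, Nphs1 and Synpo on each of the 12 arrays, by group from left to right as HG+DZNep, HG, DZNep and control; points are arrays and bars are group means. The control arrays are the highest for Ezh2 and the lowest for Txnip and Nphs1, and control replicate 3 is the highest array for Hif1a.

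Podocyte genes showed no interaction past the threshold. Nphs1, the gene of the slit diaphragm protein nephrin, had log2 intensities of 11.75, 11.72 and 11.82 on HG+DZNep arrays, against 11.62, 11.68 and 11.62 on HG arrays, and 11.58, 11.63 and 11.58 on DZNep arrays, against 11.34, 11.31 and 11.47 on control arrays. Its DZNep effect was 0.12 in high glucose (adjusted p = 0.189, limma) and 0.22 without it (adjusted p = 0.0205, limma), and the interaction was -0.10 (95% confidence interval -0.30 to 0.10), within the spread between arrays. Synpo, which encodes the actin-binding protein synaptopodin, had an interaction of -0.13 (-0.40 to 0.15). Of 31 podocyte genes measured, 0 passed and the median was -0.09. At an unadjusted p under 0.05, 3 were positive and 3 negative, beside 6.52% and 9.25% of all genes. The member with the largest shift was Tjp1, the tight junction protein ZO-1, at -0.91 (adjusted p = 0.160, limma), with a DZNep effect of -0.27 in high glucose (adjusted p = 0.350, limma) and 0.65 without it (adjusted p = 0.0234, limma).

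Hif1a, the oxygen-regulated subunit of the hypoxia-inducible factor, was among the largest interactions by size without passing. It had log2 intensities of 6.40, 6.26 and 6.32 on HG+DZNep arrays, against 7.36, 6.52 and 6.10 on HG arrays, and 5.39, 5.67 and 6.22 on DZNep arrays, against 7.26, 7.14 and 8.06 on control arrays. It was not well above background on the lowest of the DZNep arrays. The HG group spread over more than 1 log2 unit and control replicate 3 was the highest of all arrays. The DZNep effect was -0.34 in high glucose (adjusted p = 0.491, limma) and -1.73 without it (adjusted p = 0.00211, limma), and the interaction was 1.39 (SE 0.452, 95% confidence interval 0.40 to 2.38, adjusted p = 0.183, limma), or 1.10 without control replicate 3. Among 17 hypoxia genes measured, 1 (Hif1a itself) was positive and 4 were negative at an unadjusted p under 0.05, beside 6.52% and 9.25% of all genes. The list's median was -0.12. Higd1a, a mitochondrial gene induced by hypoxia, had -0.63 (adjusted p = 0.152, limma). It was dim on every array, at log2 5.39 to 6.09, and was not detected on control replicate 3.

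Of the 28 gene lists, 27 held no gene past the interaction threshold, and the cell cycle list held 1, Ncapg2. Their medians ranged from -0.20 for immediate early genes to 0.13 for splicing factors, beside a median of -0.06 and an interquartile range of -0.20 to 0.09 over all genes. The lists were chosen with earlier results of these data known and their medians carry no test.

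The splicing factors and RNA-binding proteins had the highest median. Of 44 measured, 13 had a positive and 1 a negative interaction at an unadjusted p under 0.05, beside 6.52% and 9.25% of all genes. Matr3, a nuclear matrix RNA-binding protein, had log2 intensities of 13.10, 12.99 and 13.04 on HG+DZNep arrays, against 12.99, 12.97 and 13.02 on HG arrays, and 12.76, 13.03 and 12.88 on DZNep arrays, against 13.25, 13.14 and 13.35 on control arrays. DZNep lowered Matr3 by -0.36 without high glucose (adjusted p = 0.00650, limma) and its change in high glucose was 0.05 (adjusted p = 0.724, limma), with an interaction of 0.41 (adjusted p = 0.147, limma); its other, dimmer probe gave 0.48, with DZNep effects of -0.60 in high glucose and -1.08 without it. Hnrnpf, an hnRNP that regulates exon inclusion, had a DZNep effect of -0.06 in high glucose (adjusted p = 0.864, limma) and -0.97 without it (adjusted p = 0.00420, limma), with an interaction of 0.91 (adjusted p = 0.178, limma), or 0.65 without control replicate 3. In the whole list DZNep raised 3 and lowered 3 of 44 in high glucose, beside 12.4% and 11.9% of all genes, and raised 2 and lowered 16 without it, beside 20.3% and 13.6%. Without control replicate 3, 13 members were positive and 0 negative, and the median was 0.11.

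The immediate early genes had the lowest median. They are the transcription factors and regulators that cells switch on within minutes of a stimulus, such as Jun and Atf3. DZNep raised 9 and lowered 1 of 19 in high glucose, beside 12.4% and 11.9% of all genes, with a median effect of 0.25. Without high glucose it raised 13 and lowered 0, beside 20.3% and 13.6%, with a median of 0.62. Jun stood at 9.60, 9.52 and 9.71 on HG+DZNep arrays, against 9.21, 9.05 and 9.11 on HG arrays, and at 9.58, 9.53 and 9.57 on DZNep arrays, against 8.82, 8.84 and 8.86 on control arrays. The 2 groups with DZNep overlapped, and the HG arrays lay above the control arrays. Jun rose with DZNep by 0.48 in high glucose (adjusted p = 0.000617, limma) and by 0.72 without it (adjusted p = 4.14e-05, limma), and the interaction of -0.24 did not pass (adjusted p = 0.274, limma). Atf3, also a stress-response factor, had effects of 0.12 in high glucose (adjusted p = 0.593, limma) and 0.63 without it (adjusted p = 0.00608, limma), with an interaction of -0.51 (adjusted p = 0.253, limma). None of the 19 members was positive and 3 were negative at an unadjusted p under 0.05, beside 6.52% and 9.25% of all genes, and without control replicate 3 the negative ones numbered 1 and the median was -0.13.

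**Figure D4:**
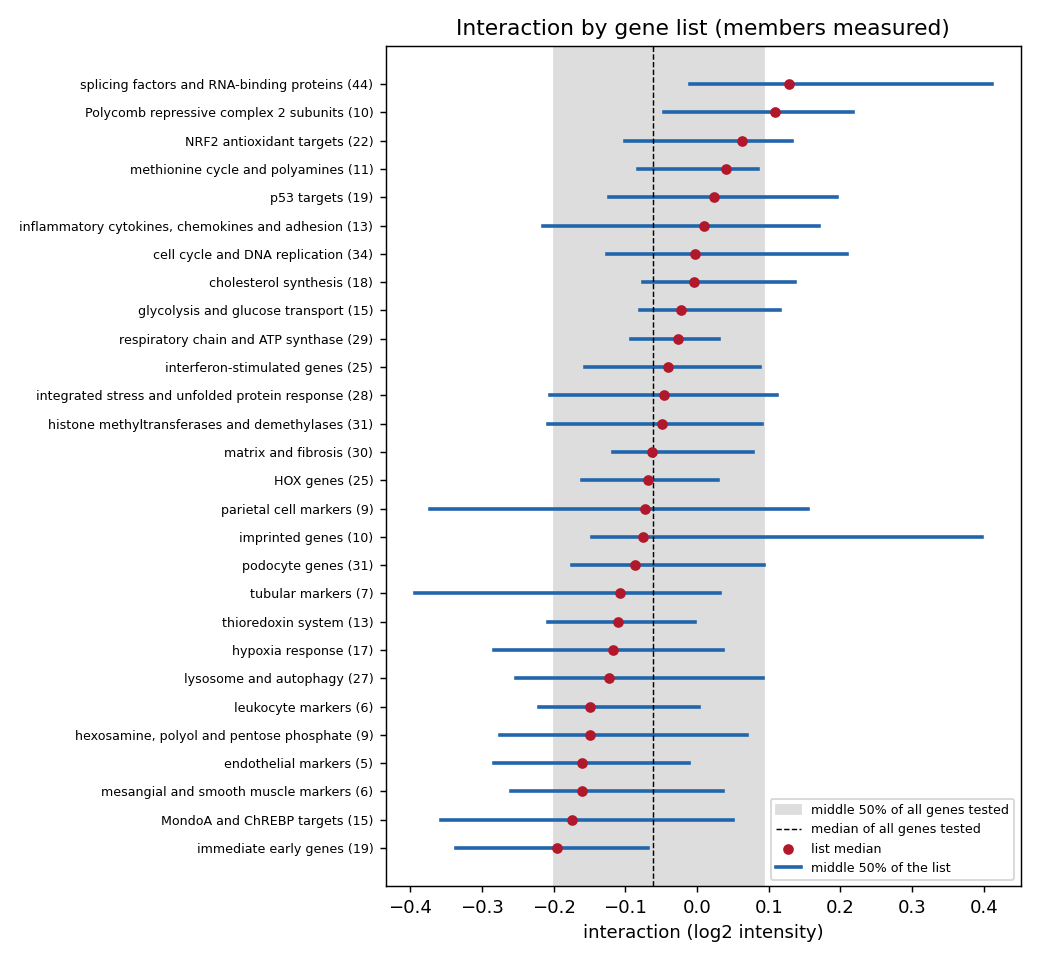
Median interaction (red point) and interquartile range of the members (blue bar), in log2 units on the horizontal axis, for 28 gene lists ordered by median, with the number measured in brackets; the dashed line and grey band show the median (-0.06) and interquartile range of all 10258 genes. Most list medians lie within the grey band, with splicing factors above it at 0.13 and PRC2 subunits at 0.11, and immediate early genes lowest at -0.20.

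In the other lists, single members had DZNep effects of opposite sign in the 2 settings without passing for the interaction. Calr, an endoplasmic reticulum chaperone, had effects of 0.47 in high glucose (adjusted p = 0.0615, limma) and -0.56 without it (adjusted p = 0.0245, limma), with an interaction of 1.03 (adjusted p = 0.109, limma), or 0.84 without control replicate 3. Tgfb3, a TGF-beta ligand, was lowered by DZNep in high glucose by -0.34 (adjusted p = 0.0266, limma) and raised without it by 0.28 (adjusted p = 0.0471, limma), and its interaction of -0.62 fell short (adjusted p = 0.0979, limma). Its levels were 9.61, 9.67 and 9.63 on HG+DZNep arrays, against 9.90, 10.06 and 9.97 on HG arrays, and 10.22, 9.90 and 9.83 on DZNep arrays, against 9.78, 9.73 and 9.59 on control arrays. These groups were separated in both pairs.

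Among interferon-stimulated genes, Bst2, which tethers virions at the cell surface, had a DZNep effect of 0.01 in high glucose (adjusted p = 0.960, limma) and 0.78 without it (adjusted p = 0.00292, limma), whereas Ifit2 had 0.56 in high glucose (adjusted p = 0.00249, limma) and 0.08 without it (adjusted p = 0.587, limma). Their interactions were -0.77 and 0.48 (adjusted p = 0.147 and 0.159, limma), of opposite sign. The list of 25 had 3 positive and 5 negative members at an unadjusted p under 0.05, beside 6.52% and 9.25% of all genes. Setd2, which trimethylates H3 lysine 36, rose with DZNep in high glucose by 0.45 (adjusted p = 0.00590, limma) and stood at 0.02 without it (adjusted p = 0.891, limma). Its interaction of 0.43 did not pass (adjusted p = 0.174, limma), and its other probes gave 0.87 and 0.22. Kcnq1ot1, the imprinted antisense transcript of the Kcnq1 locus, had effects of 0.52 in high glucose (adjusted p = 0.00829, limma) and -0.15 without it (adjusted p = 0.345, limma), with an interaction of 0.67 (adjusted p = 0.124, limma). Which strand its probe targets was not stated.

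Some genes rose with DZNep in both settings without passing for the interaction. Atg9b, an autophagy membrane protein, rose with DZNep by 1.32 in high glucose (adjusted p = 2.72e-06, limma) and by 1.80 without it (adjusted p = 2.63e-07, limma), with an interaction of -0.47 (adjusted p = 0.123, limma). Its other, dimmer probe gave 0.30, the opposite sign. Mvk, mevalonate kinase of cholesterol synthesis, rose by 1.01 in high glucose (adjusted p = 7.27e-05, limma) and by 1.36 without it (adjusted p = 9.36e-06, limma), with an interaction of -0.35 (adjusted p = 0.275, limma). Fas, the death receptor gene and p53 target, rose by 0.69 in high glucose (adjusted p = 4.50e-05, limma) and by 0.42 without it (adjusted p = 0.000834, limma), with an interaction of 0.27 (adjusted p = 0.201, limma). Its other, dimmer probe gave an interaction of 0.79, with DZNep effects of 0.52 in high glucose and -0.27 without it. Of the 19 p53 targets, DZNep raised 9 and lowered 2 in high glucose, beside 12.4% and 11.9% of all genes, and raised 8 and lowered 2 without it, beside 20.3% and 13.6%.

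Read along the glucose axis, the same interaction compares high glucose under DZNep with high glucose alone. Under DZNep, HG+DZNep against DZNep, 6 genes passed (0.0585%), 3 higher (0.0292%) and 3 lower (0.0292%). Without DZNep, HG against control, 29 genes passed (0.283%), 21 higher (0.205%) and 8 lower (0.078%). Without control replicate 3 they numbered 7 higher and 9 lower under DZNep, and 7 higher and 3 lower without it. Of the 29, 20 had the same sign under DZNep, where their median absolute change was 0.21, against 0.61 without DZNep, and 3 were called there, Aqp1, Inmt and Tgfbi, the last of which was not well above background on any DZNep array. Some shrinkage is built in, since the genes were chosen by their change without DZNep. Aqp1, the water channel aquaporin 1, rose with high glucose by 1.05 under DZNep (adjusted p = 0.00268, limma) and by 1.16 without it (adjusted p = 0.0019, limma), with an interaction of -0.11 (SE 0.147); it is also 1 of the tubular markers, whose summed level was higher with high glucose in both arms. Inmt, an indolethylamine methyltransferase, rose by 0.91 under DZNep (adjusted p = 0.0135, limma) and by 0.92 without it (adjusted p = 0.00651, limma), with an interaction of -0.02 (SE 0.155). Sorcs2, a sortilin-family receptor, changed by 0.04 under DZNep (adjusted p = 0.935, limma) and rose by 0.77 without it (adjusted p = 0.0423, limma), and its interaction of -0.73 did not pass (adjusted p = 0.125, limma). These genes were chosen after their values were seen.

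The largest interactions by size mostly did not pass and rested in part on 1 array. Of 49 genes with an absolute interaction of 1 or more, 44 were positive, 5 were negative and 2 passed the threshold. In 43 of the 44 positive ones control replicate 3 was the highest of the 3 controls, and without that array 21 of the 49 remained at 1 or more. The median of the 44 was 1.16 with all arrays and 0.94 without it. Rbbp7, a histone-binding subunit of PRC2 and other complexes, had the largest value of all at 1.63 (SE 0.509, adjusted p = 0.174, limma). It stood at 9.44, 9.39 and 9.46 on HG+DZNep arrays, against 10.18, 9.48 and 8.94 on HG arrays, and at 8.80, 8.65 and 9.28 on DZNep arrays, against 10.13, 10.28 and 11.52 on control arrays. The HG and control arrays spread over more than 1 log2 unit each, and without control replicate 3 the interaction was 1.19. Of its 3 other probes, 2 gave 1.51 and 1.43 and the dimmest gave 0.12. Rbbp7 and the next gene were chosen after their values were seen.

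Smc4, the core ATPase subunit shared by both condensin complexes, came closest to the threshold. It had 6.88, 6.76 and 6.65 on HG+DZNep arrays, against 6.76, 6.74 and 6.98 on HG arrays, and 6.23, 6.42 and 6.6 on DZNep arrays, against 7.78, 7.62 and 8.27 on control arrays. The controls stood apart from the other 9 arrays. DZNep lowered Smc4 by -1.47 without high glucose, its change in high glucose was -0.06 (adjusted p = 0.820, limma), and the interaction was 1.41 (SE 0.217, adjusted p = 0.0570, limma). Without control replicate 3 it was 1.22. The other 2 probes of Smc4 gave 0.14 and 0.44.

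A feature not used to define the interaction, looked at after the values were seen, was the genomic span of each gene in the RefSeq table, known for 10252 genes. Genes with a positive interaction at an unadjusted p under 0.05 had a median span of 39.3 kb (n = 669), those with a negative one 20.2 kb (n = 949) and all genes 22.1 kb. In 10 bins of equal size by span, the positive genes numbered 29 in the shortest, 122 in the ninth and 102 in the longest bin, and the negative ones 101, 78 and 72. Without control replicate 3 the positive ones numbered 21 in the shortest and 92 in the longest bin, and the negative ones 83 and 55. Over all genes the rank correlation of the interaction with span was 0.115 and with mean level 0.096, both weak. From the shortest to the longest bin, the median DZNep effect went from 0.072 to -0.039 without high glucose and from 0 to -0.026 in high glucose. The correlation of each array's deviation with span differed between replicates of 1 group, from -0.19 on DZNep replicate 1 to 0.007 on DZNep replicate 2. It was -0.075 on HG replicate 1 against 0.086 on HG replicate 3. On the control arrays it was 0.151, 0.099 and 0.098, and on the HG+DZNep arrays -0.036, -0.047 and -0.057. The part of array quality in the pattern was not tested.

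**Figure D5:**
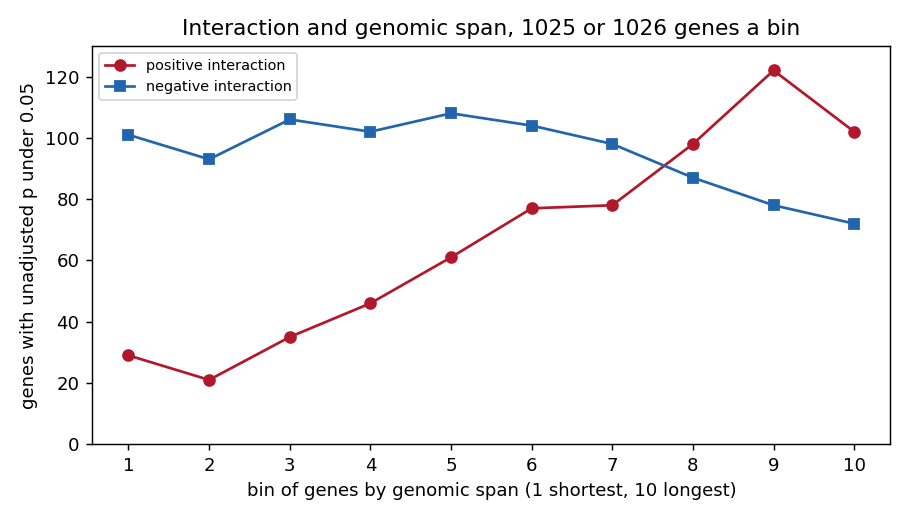
Number of genes with a positive (red circles) or negative (blue squares) interaction at an unadjusted p under 0.05, on a vertical axis from 0, in 10 bins of genomic span from the shortest to the longest genes on the horizontal axis. The positive count goes up to 122 in the ninth bin, against 29 in the shortest, while the negative count is 101 in the shortest and 72 in the longest bin.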

How the data were processed

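Probe signals were deposited as linear intensity, not normalized, with a detection p-value per probe and array, per the file headers. The submitters' processing notes name GenomeStudio without a version. A second deposited table, also intensity, rose linearly with each array's raw signal (factor 0.832 to 1.12, mean 568.254 on every array, medians 9.97 to 11.39, 32.6% to 36% of values below 0), so the authors had subtracted an offset of unstated purpose and scaled; it served as an alternative.

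The neqc function of limma 3.58.1 (R 4.3.3) corrected background by normexp, using the detection p-values and an offset of 16, then normalized by quantiles and took log2, so folds of dim genes are understated. Of 45281 probes, 34885 had 1 symbol, 18 several and 10378 none; 34807 IDs matched RefSeq. Of 19273 detected probes 16311 had 1 symbol, and the brightest probe stood for each of 10258 genes. Other probes' values come from the same model over the 16311 probes, with p-values adjusted over them. A group-means model over 12 arrays was fitted with lmFit and eBayes (11.32 residual degrees of freedom, prior included), with Benjamini-Hochberg adjustment within each of 5 comparisons at 0.05. The script was tested on simulated data, where 5 of 118 genes called were unchanged. The genes, the 28 lists and the tests were chosen with earlier results of these data known. The rule named 9 fixed genes, up to 12 called genes in each direction, up to 6 per class of DZNep effect, and from each list up to 4 called members or the 2 with the smallest p; other genes are said to have been chosen after their values were seen. As alternatives, 9 other settings were tried and each of the 12 arrays was left out in turn.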

Additional observations from a re-analysis of the deposited data

Results flagged for a closer look

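For 5 genes the effect of DZNep differed between cultures with and without high glucose by the test of the difference itself (limma, adjusted p = 0.0383 for each). The interaction was 1.61 for Bod1l, 0.99 for Akap9, 0.82 for Ncapg2, -1.05 for Hba-a1 and -0.75 for Matn4, on the log2 scale with 3 arrays per group. The sign was the same under all 21 alternatives for each of the 5. The call held in 9 of the 21 for Bod1l, 6 for Akap9, 8 for Ncapg2, 7 for Hba-a1 and 7 for Matn4. In the same model over 16311 probes, 3 probes passed higher, of Bod1l, Akap9 and Kif4. A further 3 passed lower, of Hba-a1, Nfatc1 and Zfp523, while Ncapg2 and Matn4 did not pass there.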

How the results depend on the processing

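Calls for the interaction depended on the processing; the cause was not tested. Higher and lower genes numbered 112 and 49 with quantile normalization without background correction, 1 and 1 with the authors' values, 3 and 0 with arrays centred on their medians, 0 and 0 without a filter on dim probes (2108 at an unadjusted p under 0.05), 10 and 3 with genes detected on all 12 arrays, 18 and 9 with array weights, and 123 and 44 with a trended, robust prior. Leaving out 1 array gave 0 to 9 higher and 0 to 9 lower.

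For HG+DZNep against HG, centring gave 785 higher and 695 lower and array weights 1937 higher; leaving out 1 array gave 806 to 1392 higher and 799 to 1354 lower. For DZNep against control, centring gave 969 higher and 1272 lower, the reverse order of the main counts. Leaving out 1 array gave 1515 to 2063 higher and 1048 to 1382 lower. For HG+DZNep against DZNep, higher genes numbered 12 (quantile normalization alone), 6 (authors' values), 6 (centring), 17 (weights) and 14 (trend), and lower ones 9 (quantile normalization alone), 20 (weights) and 10 (trend); leaving out 1 array gave 2 to 7 higher and 0 to 9 lower. For HG against control, higher genes numbered 146 (quantile normalization alone), 9 (authors' values), 4 (centring), 7 (no filter) and 150 (trend), and lower ones 173 (quantile normalization alone), 1 (authors' values), 2 (centring), 3 (no filter), 25 (all 12 arrays), 22 (weights) and 168 (trend); leaving out 1 array gave 5 to 43 higher and 1 to 31 lower.

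Replicate numbers did not pair the samples: same-numbered arrays' deviations correlated at -0.182 to 0.215, over 0.1 in 2 of 18 pairs. With the replicate number as a block, 0 genes passed higher and 0 lower for the interaction (smallest adjusted p 0.0616, limma), 0 lower for HG+DZNep against DZNep, and 6 higher and 2 lower for HG against control. When a gene's detected probes were averaged, the counts of all 5 comparisons were within 1.5 times of those reported, but for the interaction Akap9 and Ncapg2 no longer passed and Kif4 did. The correlation of the 2 DZNep effects was 0.609 to 0.707 with 1 array left out and 0.593 to 0.707 under the other settings. A slide block was not run because the headers give no slide. Dim signal limits 674 genes, detected on no array of at least 1 group.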
